A study of Ovis aries with 9 samples.

Results

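The liver genes that build, trim and burn glucose stores were followed in single sheep hepatocytes from the virgin state through gestation to lactation. They were 8 of the 28837 named genes in the deposited count table, taken by symbol as GYS2, GBE1, UGP2, PYGL, PGM1, PPP1R3C, PFKL and PKLR, and all 8 were present and passed the low-count filter of every test. Female sheep livers were digested with collagenase, single hepatocytes were picked by hand, and a separate library was made from each by the Smart-seq3xpress protocol, in which every cell is lysed and reverse transcribed in its own well. The labels name 1 sample per stage, which gives 9 samples: 1 virgin sample, 6 of gestation (days 40 to 50, 50 to 70, 70 to 80, 90 to 100, 100 to 120 and 140 to 150) and 2 of lactation (postpartum days 7 and 15). The labels give neither the breed or age nor the number of animals behind a sample, and no treatment or altered gene. P-values therefore measure only the spread between stages of a phase, and the virgin phase rests on 1 sample that is assumed to vary like the others.

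Glycogen is a branched glucose polymer that the liver fills after feeding and empties between meals. Glucose 1-phosphate is turned into UDP-glucose, strung into chains and branched, while phosphorylase cuts the chains back to glucose 1-phosphate. Hepatic glycolysis takes the same sugar phosphates down to pyruvate, with phosphofructokinase and pyruvate kinase as its regulated steps. In ruminants the rumen ferments most dietary carbohydrate, so the liver makes glucose rather than receiving it.

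The 9 samples held 3404 cells, 246 to 553 per sample, and 114865665 to 272944124 reads in named genes per sample. No pair of cells had identical counts. Levels are given as CPM, reads of a gene per 1000000 reads of a sample after TMM scaling of the summed reads, and a sum over cells cannot tell fewer expressing cells from less RNA per cell. The 12 hepatocyte markers summed to 173400 CPM in the virgin sample, 160600 to 214300 in gestation and 79300 to 109900 in lactation. The lactation samples thus lay below all the others in this sum, of which ALB was the largest part. By fitted value, 11 of the 12 were higher in gestation than in lactation and 1, HNF4A, was lower. HNF4A stood at 94.9 CPM in the virgin sample, 84.2 to 121 in gestation and 119 to 131 in lactation. Markers of other cell types were low: bile duct markers summed to 0.841 to 3.17 CPM, endothelial to 5.15 to 14.3, stellate to 2.98 to 28.4, macrophage to 12.9 to 55.1 with CD68 at 0 in every sample, and lymphocyte to 2.72 to 36.8. Neutrophil markers summed to 1.05 to 2.78 CPM in gestation and 8.37 to 12.9 in lactation, and red cell markers to 0.410 to 223.8 over all samples. The part of these marker differences in the results was not tested.

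Most of the 8 genes kept to narrow ranges over the stages, and PPP1R3C had the widest. Over the 9 stages the highest level was 1.31 times the lowest for PYGL, 1.39 for PGM1, 1.60 for GBE1, 1.83 for GYS2, 1.84 for PKLR, 2.49 for PFKL, 3.00 for UGP2 and 6.73 for PPP1R3C. PYGL and PGM1 thus varied least, and PPP1R3C, the subunit that steers a phosphatase to glycogen, varied most. None of the 8 genes passed an adjusted p of 0.05 in any comparison of phases or in the trend over gestation, so the levels below describe these samples.

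UGP2 makes UDP-glucose, the glucose donor for glycogen synthase. Its level was 65.4 CPM in the virgin sample, and in gestation it was 44.0 CPM at days 40 to 50, 36.9 at days 50 to 70, 47.9 at days 70 to 80, 78.4 at days 90 to 100, 52.6 at days 100 to 120 and 43.8 at days 140 to 150. In lactation it was 26.2 CPM at day 7 and 53.1 CPM at day 15. The highest and lowest of these levels came from days 90 to 100 and day 7 of lactation, and of the lactation samples day 7 lay below all of gestation and day 15 inside its range. At days 90 to 100 a single cell held 29.1% of all UGP2 reads, 4613 of them, although it held 1.65% of the reads of that sample. Without that cell the UGP2 level at days 90 to 100 was 56.5 CPM, a setting chosen after seeing the data. As a mean in which every cell counted equally, without TMM scaling, the UGP2 level there was 46.9 CPM. Of the 72 gene and stage levels, this was the only one that such equal weighting moved by more than 1.5 times.

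PGM1 interconverts glucose 1-phosphate and glucose 6-phosphate and so serves both directions of glycogen turnover. Its level was 87.6 CPM in the virgin sample, between 80.5 CPM (days 140 to 150) and 111.6 CPM (days 90 to 100) in gestation with a median of 97.2, and 83.7 and 96.8 CPM at days 7 and 15 of lactation. All the PGM1 samples outside gestation lay inside the gestation range. With the PGM1 levels ranked by size, no step exceeded the SD of the gestation samples on the log2 scale, which was 0.17.

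GYS2 is the liver form of glycogen synthase, which lengthens the glucose chains. Its level was 65.5 CPM in the virgin sample, and in gestation it was 52.8 CPM at days 40 to 50, 60.1 at days 50 to 70, 88.0 at days 70 to 80, 75.7 at days 90 to 100, 59.1 at days 100 to 120 and 77.0 at days 140 to 150. Lactation gave 48.1 CPM at day 7 and 55.7 CPM at day 15. GYS2 was thus lowest at day 7 of lactation and highest at days 70 to 80, but the day 15 level lay above that of days 40 to 50, so gestation and lactation overlapped. At day 7 the level was 0.624 times that of days 140 to 150. At days 90 to 100 the richest 10% of cells held 55.2% of the GYS2 reads, counted in cells of unequal depth. As a mean in which every cell counted equally, without TMM scaling, GYS2 was 61.5 CPM there, below the 68.9 CPM of the virgin sample. The summed reads scaled by total reads alone gave 71.73 and 69.43 CPM for these samples. By the mean over cells, days 40 to 50, at 49.9 CPM, lay below day 7 of lactation, at 51.6 CPM. Total-read scaling of the summed reads gave that order too, at 49.16 and 52.25 CPM, so it appeared without equal weighting. GYS1, the form of the synthase found in muscle and most other tissues, stayed at 1.67 to 3.30 CPM in all 9 samples. Per kilobase of gene length its mean of 0.680 CPM was far under the 18.9 CPM of GYS2.

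GBE1 adds the branch points of glycogen. Its level was 119.2 CPM in the virgin sample and 118.6 CPM at days 40 to 50, with exact 95% Poisson intervals of 117.9 to 120.5 and 116.7 to 120.5. Later gestation gave 102.6 CPM at days 50 to 70, 87.8 at days 70 to 80, 103.1 at days 90 to 100, 84.4 at days 100 to 120 and 74.4 at days 140 to 150. In lactation the level was 100.3 CPM at day 7 and 92.5 CPM at day 15, inside the gestation range. The order of the 9 GBE1 levels placed the virgin sample and days 40 to 50 at the top and days 140 to 150 at the bottom, with no neighbouring pair further apart than the gestation SD of 0.24 on the log2 scale.

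PPP1R3C brings protein phosphatase 1 to glycogen, where the phosphatase switches the synthase on and phosphorylase off. Its level was 83.1 CPM in the virgin sample, and in gestation it was 264 CPM at days 40 to 50, 241 at days 50 to 70, 39.3 at days 70 to 80, 63.6 at days 90 to 100, 138 at days 100 to 120 and 51.7 at days 140 to 150. At days 7 and 15 of lactation it was 106 and 133.5 CPM. The first stages of gestation stood highest, days 70 to 80 stood lowest, and days 100 to 120 stood again above the virgin sample, so the order of PPP1R3C levels did not follow the order of days. The gestation SD was as wide as 1.18 on the log2 scale, and with the levels ranked by size no step exceeded it. Between successive stages the level could change by more, as from 241 CPM at days 50 to 70 to 39.3 at days 70 to 80. PPP1R3C made up 35.1% of the summed CPM of the 8 genes at days 40 to 50 and 7.87% at days 70 to 80. The sum of all 8 ranged from 481.3 to 752 CPM with PPP1R3C and from 395 to 518 CPM without it.

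**Figure D1:**
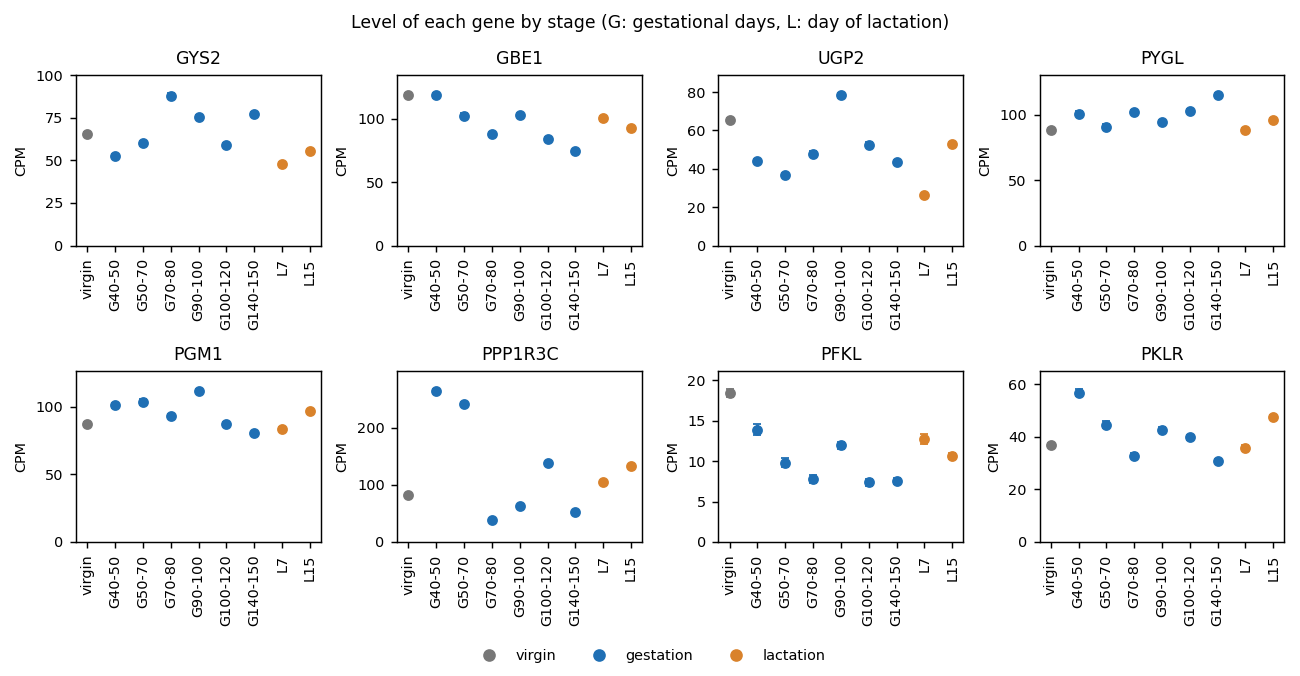
Level of each of the 8 genes, in CPM, in each of the 9 stages, with bars for the exact 95% Poisson interval (counting error only), often smaller than the point. PPP1R3C spans 39.3 to 264 CPM, whereas PYGL stays between 88.3 and 115 CPM.

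The high PPP1R3C levels at days 40 to 50 and 50 to 70 and the low ones at days 70 to 80 and 140 to 150 were seen in the median cell too. After each cell was thinned to 155164 reads, which kept 3063 cells and left out 341 shallower ones, the median cell held 226 CPM of PPP1R3C at days 40 to 50 and 187 CPM at days 50 to 70. At days 70 to 80 and at days 140 to 150 the median PPP1R3C cell held 32.2 CPM. The lowest decile of cells at days 40 to 50 reached 83.8 CPM, close to the 95.4 CPM that marked the top decile at days 70 to 80. At days 100 to 120 the median was 64.5 CPM and the top decile began at 330 CPM. The values of thinned cells carry no TMM scaling. On that basis the virgin median was 70.9 CPM, and the summed levels were 126.8 CPM at days 100 to 120 and 88.0 CPM in the virgin sample. The TMM factors of these samples were 0.9197 and 1.059, so the order of their medians depends on the scaling. Before thinning, with cells of unequal depth, the richest 10% of cells held 41.7% of the PPP1R3C reads at days 100 to 120. That share was 40.8% at days 70 to 80, 39.7% at days 140 to 150 and 37.4% at days 90 to 100. It was 27.8% at days 40 to 50 and 32.3% at days 50 to 70. Also before thinning, no single cell held more than 5.28% of the PPP1R3C reads of a stage.

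**Figure D2:**
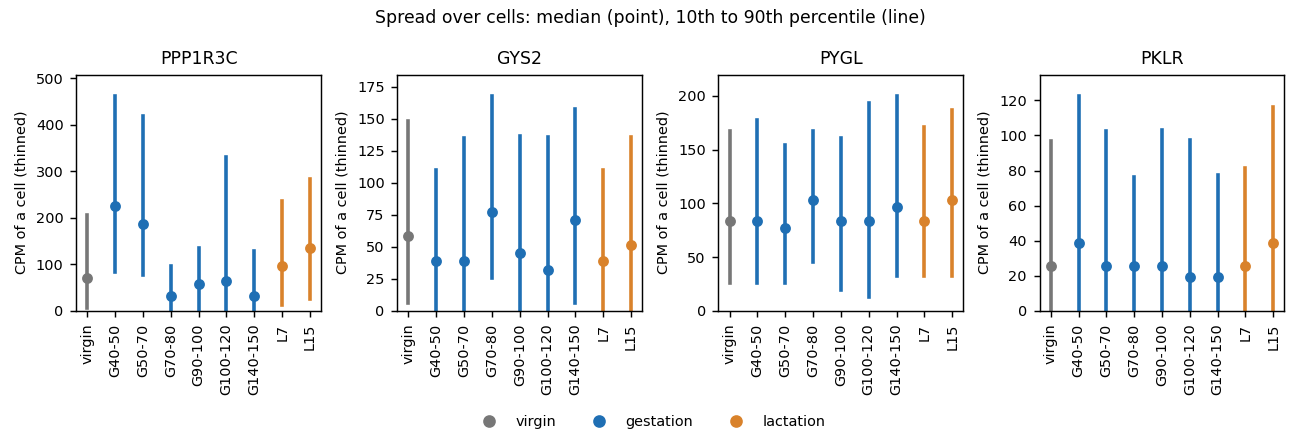
Spread over thinned cells of PPP1R3C, GYS2, PYGL and PKLR, in CPM of a cell, by stage: points are medians and lines run from the 10th to the 90th percentile of cells. The PPP1R3C line at days 40 to 50 runs from 83.8 to 461 CPM and at days 70 to 80 from 0 to 95.4 CPM, whereas the PYGL lines overlap at every stage.

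PPP1R3B, the targeting subunit best known from liver, was set beside PPP1R3C as its paralog. The PPP1R3B level was 119 CPM in the virgin sample, 199 and 209.8 CPM at days 40 to 50 and 50 to 70, 52.3 at days 70 to 80, 82.3 at days 90 to 100, 85.5 at days 100 to 120 and 103 at days 140 to 150. In lactation PPP1R3B stood at 180.0 CPM at day 7 and 232 CPM at day 15. Both subunits were thus high at the first stages of gestation and lowest at days 70 to 80, but PPP1R3B was highest at day 15 of lactation, where PPP1R3C was not. Per kilobase, PPP1R3C averaged 48.4 CPM and PPP1R3B 27.5 CPM over the 9 stages. IRS2, an adaptor of insulin receptor signalling chosen after its values were seen, had a virgin level of 33.4 CPM, then 8.02 and 11.8 CPM at days 40 to 50 and 50 to 70, 49.5 at days 70 to 80, 28.0 at days 90 to 100, 33.9 at days 100 to 120 and 24.7 at days 140 to 150. In lactation IRS2 stood at 13.9 and 8.82 CPM. It was thus low at the first stages of gestation and highest at days 70 to 80, but at days 100 to 120 both IRS2 and PPP1R3C were among their higher levels. Across cells within a stage, the Spearman correlation of PPP1R3C with PPP1R3B had a median of 0.15 over the 9 stages. It ranged from -0.09 to 0.37, in cells of the same sample, which are not replicates.

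**Figure D3:**
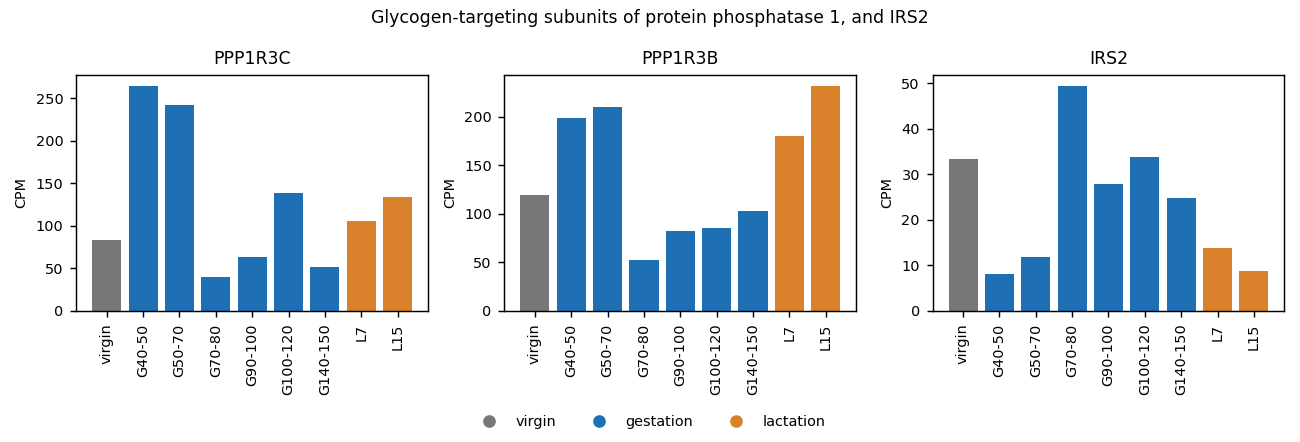
Levels in CPM of PPP1R3C, PPP1R3B and IRS2 in each stage, 1 bar per sample. PPP1R3C and PPP1R3B are lowest at days 70 to 80, at 39.3 and 52.3 CPM, where IRS2 is highest, at 49.5 CPM.

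PYGL is the liver glycogen phosphorylase, which releases glucose 1-phosphate from the chain ends. Its level was 88.7 CPM in the virgin sample, and in gestation it was 101 CPM at days 40 to 50, 90.8 at days 50 to 70, 102 at days 70 to 80, 94.4 at days 90 to 100, 103 at days 100 to 120 and 115 at days 140 to 150. At days 7 and 15 of lactation it was 88.3 and 96.0 CPM. The term sample stood at the top. Among PYGL levels ranked by size, only the step from that sample to days 100 to 120 exceeded the gestation log2 SD of 0.12. PYGL at day 7 of lactation was 0.766 times the level of days 140 to 150. Its paralogs PYGB and PYGM, known from brain and muscle, did not pass 0.233 CPM in any sample. Per kilobase, GYS2 stood at 0.485 to 0.798 times PYGL, lowest at days 40 to 50 and highest at days 70 to 80, so the phosphorylase transcript was the more abundant of the pair in all 9 samples.

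PFKL is the liver form of phosphofructokinase, the committed step of glycolysis. Its level was 18.4 CPM in the virgin sample, and in gestation it was 13.9 CPM at days 40 to 50, 9.81 at days 50 to 70, 7.80 at days 70 to 80, 11.9 at days 90 to 100, 7.38 at days 100 to 120 and 7.54 at days 140 to 150. Lactation gave 12.7 CPM at day 7 and 10.6 CPM at day 15. The virgin sample stood above all others, by a step to days 40 to 50 that was larger than the gestation SD of 0.38 on the log2 scale, and the lactation samples lay within the gestation range. PFKL had the fewest reads of the 8 genes: the 996 reads of days 70 to 80 give the level of 7.80 CPM an exact 95% Poisson interval of 7.32 to 8.30. PFKM, the muscle form of the enzyme, was present at 14.5 to 44.0 CPM and was above PFKL in CPM in every sample. Per kilobase of gene length, its mean of 4.85 CPM over the 9 stages was above the 3.92 CPM of PFKL. Only after this division by length was PFKL the higher of the pair in the virgin sample and at day 15 of lactation. PFKP stayed at or under 0.769 CPM.

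PKLR encodes the liver pyruvate kinase, which ends glycolysis. Its level was 37.0 CPM in the virgin sample, and in gestation it was 56.8 CPM at days 40 to 50, 44.7 at days 50 to 70, 32.9 at days 70 to 80, 42.8 at days 90 to 100, 39.9 at days 100 to 120 and 31.0 at days 140 to 150. In lactation PKLR stood at 35.9 CPM at day 7 and 47.5 CPM at day 15. The first gestation sample was highest and the last was lowest, and the other phases fell between them. PKM, the pyruvate kinase of most other tissues, stayed between 0.225 and 2.22 CPM.

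Ranked by mean CPM per kilobase over the 9 stages, the 8 transcripts ran from PPP1R3C (48.4) through PGM1 (36.6), PYGL (30.9), GBE1 (23.2), GYS2 (18.9), PKLR (18.2) and UGP2 (14.9) to PFKL (3.92). The place of PPP1R3C rested on some of the stages: per kilobase it was below PGM1 in the virgin sample (32.3 against 34.1 CPM) and at days 70 to 80 (15.3 against 36.3), 90 to 100 (24.7 against 43.5) and 140 to 150 (20.1 against 31.4). Hexokinases, which phosphorylate glucose on entry, were scarce. HK1, a form found in most tissues, lay between 0.139 and 1.19 CPM, and HK2 and HK3 did not exceed 0.0963 and 0.497 CPM; these 3 genes were chosen after their values were seen.

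Gestation was compared with lactation by edgeR's quasi-likelihood test on summed reads, with Benjamini-Hochberg adjustment over 20263 genes. Of the 8 genes 0 were called, against 12 of all genes (0.0592%), and DESeq2 and limma likewise called 0 of the 8. At an unadjusted p under 0.05 the count was also 0 of 8, where all genes gave 9.40%. For none of the 8 did the 6 gestation samples and the 2 lactation samples separate, and among all genes 11.0% did so. GYS2 had the largest fitted difference, 0.41 higher in gestation on the log2 scale (SE 0.22, 95% interval -0.08 to 0.89, adjusted p = 0.603), from means of 68.8 ± 13.5 CPM (SD, n = 6) and 51.9 ± 5.39 CPM (SD, n = 2).

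The intervals of the other genes show what these samples could and could not separate. PYGL was at 101 ± 8.42 CPM (SD, n = 6) in gestation and 92.2 ± 5.45 CPM (SD, n = 2) in lactation, with a fitted log2 difference between -0.20 and 0.47. For PGM1 the 95% interval of gestation over lactation ran from -0.29 to 0.47, for GBE1 from -0.45 to 0.41 and for PKLR from -0.54 to 0.51. UGP2 was less well bounded, at -0.36 to 1.07, and its fitted value of 0.35 was 0.95 without day 15 of lactation and -0.07 without day 7. PFKL had an interval of -0.86 to 0.33 and PPP1R3C one of -1.36 to 1.67, which spans 1 log2 unit in either direction. The median fitted difference of the 8 was 0.11, and that of all genes 0.01. Scaling by total reads alone moved the median gene by -0.19 in this comparison and by -0.14 in that of gestation with virgin, and small differences such as that of PYGL then changed sign.

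Against the virgin sample, edgeR's test called 0 of the 8 genes in gestation, where 1 of all 20263 genes passed (0.00494%), and DESeq2 and limma called 0 of the 8. At an unadjusted p under 0.05, 1 of the 8 was lower in gestation and 0 were higher, beside 4.45% of all genes in either direction. That gene was PFKL, with a fitted log2 difference of -0.92 (SE 0.33, 95% interval -1.66 to -0.18, adjusted p = 1.00 by edgeR), from 18.4 CPM in the virgin sample and 9.72 ± 2.68 CPM (SD, n = 6) in gestation. All 6 gestation samples were below the virgin one. The virgin level lay outside the gestation range for 3 of the 8 genes, above it for PFKL and GBE1 and below it for PYGL, beside 27.0% of all genes for which it did. For GBE1 and PYGL the counting intervals of the virgin sample and of the nearest gestation sample overlapped.

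For lactation against virgin, 0 of the 8 genes and 0 of all 20263 genes (0%) passed edgeR's test, DESeq2 called 96 genes and limma 33, and neither called any of the 8. At an unadjusted p under 0.05 the counts were 0 of 8 and 1000 genes, or 4.94%. UGP2 had the lowest fitted value, -0.72 with a 95% interval of -1.75 to 0.30, from 65.4 CPM in the virgin sample and 39.6 ± 19.1 CPM (SD, n = 2) in lactation. PFKL came next at -0.65, with an interval of -1.54 to 0.23. Both lactation samples were below the virgin sample for GYS2, GBE1, UGP2 and PFKL and above it for PPP1R3C, while for PYGL, PGM1 and PKLR 1 lay on each side.

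Over the 6 gestation samples a slope per 100 days was fitted against the middle day of each stage. Again 0 of the 8 genes passed edgeR's test, against 6 of 17848 genes (0.0336%), and DESeq2 and limma called 0 of the 8. At an unadjusted p under 0.05, 3 of the 8 had negative slopes and 0 had positive ones, while 6.62% of all genes reached that level in either direction and 3.41% with a negative slope. These were GBE1 at -0.59 (SE 0.23, adjusted p = 0.714 by edgeR), PPP1R3C at -2.07 (SE 0.84, adjusted p = 0.734 by edgeR) and PKLR at -0.67 (SE 0.28, adjusted p = 0.739 by edgeR). Their 95% intervals were -1.12 to -0.05, -4.00 to -0.13 and -1.32 to -0.03 on the log2 scale. PFKL and PGM1 also had negative slopes, of -0.71 and -0.33, and GYS2, UGP2 and PYGL positive ones of 0.33, 0.28 and 0.23, each with an interval that holds 0. The median slope of the 8 was -0.46, and that of all genes 0.01.

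**Figure D4:**
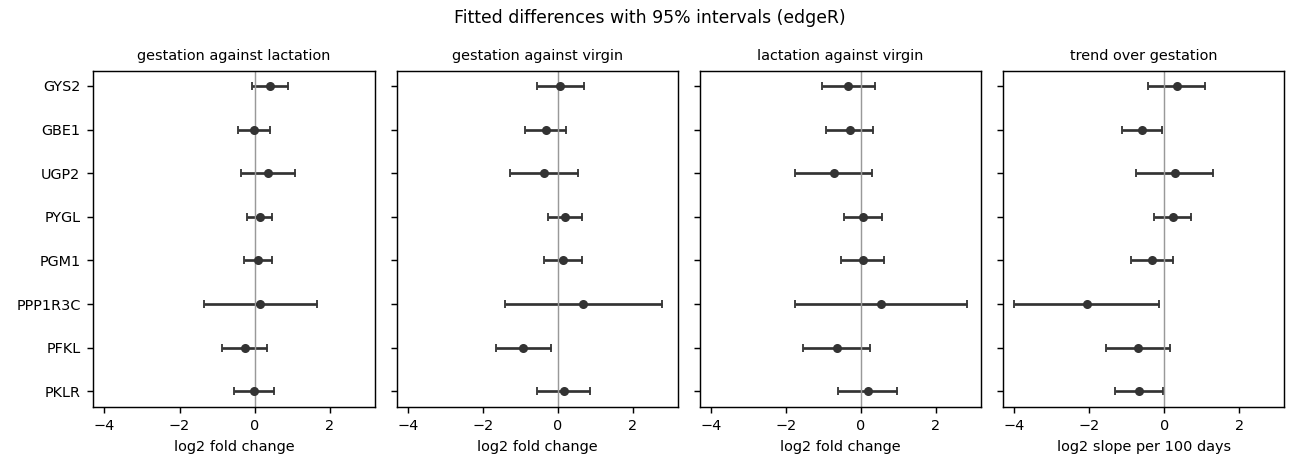
Fitted log2 differences (first 3 panels) and log2 slope per 100 days of gestation (last panel) for the 8 genes, with 95% intervals from edgeR. Intervals clear of 0 appear for PFKL in gestation against virgin and for GBE1, PPP1R3C and PKLR in the trend, and none of these passed adjustment over all genes.

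From the wider glycogen and glycolysis lists, none of the genes tested was called in any of the 4 comparisons by edgeR. Of 9 tested genes of glycogen synthesis, 0 were past an unadjusted p of 0.05 between gestation and lactation, nor were any of 13 of glycogen breakdown, 9 of the glycogen phosphatase or 16 of hormone signalling to glycogen. Among 9 tested liver enzymes of glycolysis 1 was higher and 1 lower in gestation than in lactation at that level, and among 13 other isoforms 1 was higher and 2 lower. The 16 regulators of glycolysis gave 1 higher and 3 lower, and the 12 genes of sugar entry gave 2 higher and 0 lower, where 9.40% of all genes reached that level in either direction. The trend gave 1 negative slope each in the synthesis, phosphatase and liver glycolysis lists, which are the GBE1, PPP1R3C and PKLR slopes named above. It also gave 1 positive and 1 negative slope among 11 tested other isoforms, 1 positive and 1 negative among 16 regulators, 1 negative among 12 genes of sugar entry and 0 in the breakdown and signalling lists, beside 6.62% of all genes.

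Abundant genes of these lists were described in the same way. STBD1, which tethers glycogen to membranes, ranged from 123 to 479 CPM. PPP1CB, a catalytic subunit of protein phosphatase 1, kept between 68.4 and 94.6 CPM. Signalling was led by PRKAR1A, a regulatory subunit of protein kinase A, at 101 to 197 CPM, the insulin receptor INSR at 112 to 175 CPM and the glucagon receptor GCGR at 55.7 to 103 CPM. SLC2A2, the liver glucose transporter, ranged from 341.5 to 993 CPM, GALM, which interconverts the forms of galactose, from 157 to 312 CPM, and KHK, the first enzyme of fructose use, from 72.5 to 178 CPM.

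Other isoforms and enzymes of glycolysis were set beside PFKL and PKLR. ALDOA, an aldolase, had a fitted log2 difference of gestation over lactation of -0.85 with an adjusted p of 0.240 by edgeR, and was highest at 85.2 CPM at day 15 of lactation. PFKM had a negative slope over gestation of -1.32 per 100 days (adjusted p = 0.579 by edgeR), with 31.0 CPM at days 40 to 50, 44.0 CPM at days 70 to 80 and 14.5 CPM at days 140 to 150. LDHB, a lactate dehydrogenase subunit, ranged from 260.1 to 571 CPM with its highest level at days 140 to 150. GAPDH and ENO1, enzymes of the lower pathway, ranged from 478 to 682 and from 263 to 388 CPM. ONECUT1, HNF4A and MLXIPL, liver transcription factors, ranged from 51.6 to 180.4, from 84.2 to 131 and from 70.3 to 124 CPM.

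The share of cells with reads differed between the genes. At the common depth, PYGL was found in 95.9% to 99.5% of cells by stage, PGM1 in 90.0% to 98.8%, GBE1 in 85.3% to 98.6% and GYS2 in 77.6% to 97.7%. UGP2 was found in 71.2% to 93.4% of cells, PPP1R3C in 80.5% to 100%, PKLR in 62.4% to 85.3% and PFKL in 26.8% to 64.2%. PPP1R3C was read in 265 of 265 cells at days 40 to 50 and in 352 of 437 at days 140 to 150, with exact binomial 95% intervals of 98.6% to 100% and 76.5% to 84.2%. PFKL was read in 309 of 481 virgin cells, 64.2% with an interval of 59.8% to 68.5%, and in 91 of 340 cells at days 100 to 120, 26.8% with an interval of 22.1% to 31.8%. These intervals cover counting error in cells of 1 sample.

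Days 100 to 120 had the lowest share of cells with reads for 7 of the 8 genes, the exception being PPP1R3C. Those cells also had the fewest genes after thinning, a median of 4598 against 5215 to 6399 in the other samples, although their median of 469964 reads per cell was the highest of all before thinning. Levels did not follow: days 100 to 120 had the lowest CPM for 1 of the 8 genes, PFKL. The part of gene detection in these shares was not tested. All 8 genes were read together in 37.6% of virgin cells, 33.7% of cells at day 15 of lactation and 7.65% of cells at days 100 to 120.

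**Figure D5:**
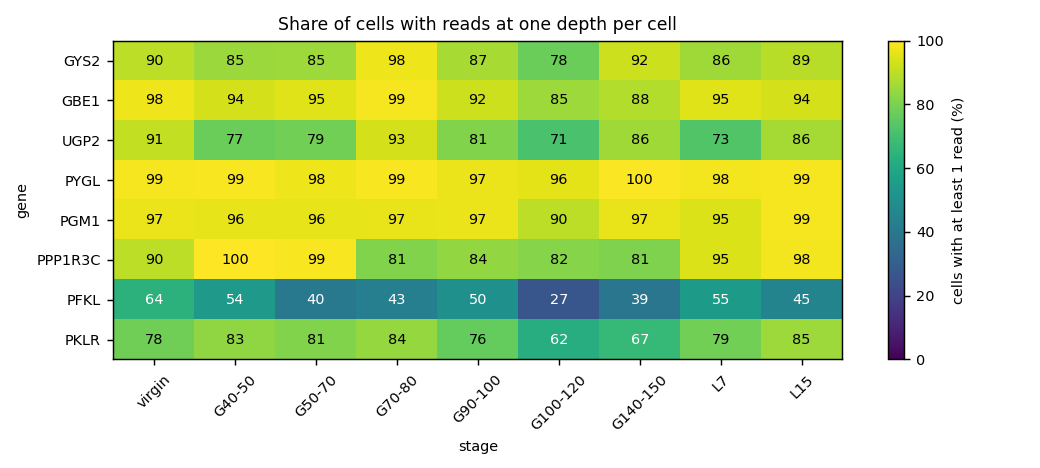
Percent of thinned cells with at least 1 read of each gene, by stage, written in each field and shown by colour. The column of days 100 to 120 is lowest for every gene but PPP1R3C, with PFKL at 26.8% and PGM1 at 90.0%.

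Within a stage the correlations between the 8 genes from cell to cell were close to 0. Over the 28 pairs, the median Spearman correlation across thinned cells ranged from -0.04 to 0.08, and the single-stage values from -0.21 to 0.25. Each value came from 213 to 495 cells of the same sample at a common depth, which are not replicates. With the mean level of 12 pericentral marker genes, PYGL correlated positively in 9 of 9 stages with a median of 0.14 and a range of 0.05 to 0.26, as did PGM1 in 9 of 9 stages with a median of 0.06 and PPP1R3C in 8 of 9 with a median of 0.09. Among the others, PKLR did so in 7 of 9, GYS2 in 6, GBE1 and UGP2 in 3 and PFKL in 2. GBE1 correlated positively with the mean of 17 periportal marker genes in 8 of 9 stages, with a median of 0.17 and a range of -0.12 to 0.31, as did PFKL with a median of 0.11. GYS2 and UGP2 did so in 7 of 9 stages with medians of 0.10 and 0.04, PKLR in 5, PYGL and PPP1R3C in 3 and PGM1 in 2. ALDH1B1, among these 17 markers, had 0 reads in every sample. These values are small and come from sparse counts, and they are given as a description.

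The genes whose levels over the 9 stages were most like those of a member were sought among 3718 genes by Pearson correlation of log2(CPM + 1), as a description over stages. For GYS2 they were NOPCHAP1 (0.93), DDI2 (0.91) and TRAK1 (0.88). For PYGL they were XDH (0.94), RAPH1 (0.91) and UBE2H (0.89), and for PKLR they were TEN1 (0.94), AKR1A1 (0.93) and HYI (0.89). XDH, the xanthine dehydrogenase of purine breakdown, resembled PYGL in being highest at days 140 to 150, at 119 CPM, while its lowest level, 60.7 CPM, was in the virgin sample, where PYGL was next to lowest. AKR1A1, an aldehyde reductase, resembled PKLR with 287 CPM at days 40 to 50 and 159 CPM at days 140 to 150.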

How the data were processed

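The authors deposited whole-number read counts per gene and cell, made with Trimmomatic 0.39, HISAT2 2.1.0 and featureCounts 2.0.1 per the submitters' processing notes; the genome build and any use of molecular identifiers are not given in the sources used here. Reads copied by PCR are not independent molecules, so intervals cover counting error only. Of 28861 table entries, 24 carry no gene name and hold 0.474% of reads; they were left out. Cells were assigned by the stage in their column names, 0 columns had no sample, and no doublets were removed here from the hand-picked cells. A deposited normalized table holds no values and was not used.

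The reads of all cells of a sample were added up per gene. Phases were compared in 1 fit over 9 samples, and the trend over 6, with edgeR 4.0.16 (TMM, filterByExpr, quasi-likelihood test, adjusted p under 0.05) in R 4.3.3; the fits were tested on simulated data. Alternatives were total-read scaling, DESeq2 1.42.0, no filter, limma 3.58.1 on log2(mean CPM over cells + 1), stage rank and each sample left out. Levels used TMM-scaled CPM computed here, divided by the deposited gene length only between genes. Means in which every cell counted equally and the values of thinned cells were CPM of each cell without TMM scaling. Shares and correlations used cells thinned to 155164 reads, the 10th percentile of depth, which left out 341 of 3404 cells, in Python 3.11.15. Cells range from 36518 to 3842012 reads.

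The 8 genes and all lists were chosen with earlier results of these data known. Named beside them are their paralogs and, per list, up to 4 called genes, otherwise the 3 with the highest mean CPM. For GYS2, PYGL and PKLR the 3 genes of most similar pattern are named, among symbols with a mean of at least 20 CPM. Some genes that this rule names are not reported here.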

Additional observations from a re-analysis of the deposited data

Results flagged for a closer look

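Among the 6 gestation samples, the percent of thinned cells with PGM1 reads was 90.0 at days 100 to 120, while the other 5 lay between 96.2 and 96.9. The gap to the nearest sample was 0.902 of the whole range, above Dixon's critical value of 0.625 for 6 samples. Such a gap is met by chance in about 1 of 20 groups, and 17 groups of values were examined. The PGM1 level at days 100 to 120 was 87.1 CPM, inside the range of the other gestation samples, and the median number of genes per thinned cell was lowest there, at 4598; its part in this share was not tested.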

How the results depend on the processing

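None of the 8 genes was called in any of 416 tests of a gene under the alternatives, of which 387 kept the direction and 29 reversed it. Total-read scaling and limma reversed gestation against lactation for PYGL (-0.0568 and -0.0748), PGM1 (-0.0991 and -0.161) and PPP1R3C (-0.0621 and -0.365). They also reversed gestation against virgin for GYS2 (-0.0608 and -0.125) and PGM1 (-0.00573 and -0.0847). In those comparisons total-read scaling moved the median gene by -0.19 and -0.14. The limma values also lack TMM scaling, and limma moved the median gene by -0.16 in each of the comparisons. DESeq2 reversed gestation against lactation for GBE1 (0.000112) and PKLR (0.0098). With each sample left out in turn, gestation against lactation ranged from -0.0906 to 0.048 for GBE1, -0.201 to 0.202 for PKLR, -0.161 to 0.344 for PPP1R3C, -0.0709 to 0.951 for UGP2 and -0.00938 to 0.200 for PGM1. Gestation against virgin ranged from -0.0122 to 0.116 for GYS2, and lactation against virgin from -0.00351 to 0.117 for PYGL, -0.064 to 0.146 for PGM1 and -0.0411 to 0.362 for PKLR.

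Counts over all genes depended on the tool. For gestation against lactation, 12 calls (6 higher, 6 lower) became 22 with total-read scaling (6 higher, 16 lower), 523 with DESeq2, 21 without the filter and 6 with limma, and 1 to 45 with a sample left out (45 without day 7 of lactation, 1 without days 40 to 50 or 70 to 80). For gestation against virgin, 1 became 117 with DESeq2, 5 without the filter and 57 with limma, and 1 to 2 with a sample left out. For lactation against virgin, 0 became 96 with DESeq2 and 33 with limma, and 0 to 1 with a sample left out. For the trend, 6 became 306, 17, 16 and, by stage rank, 2, and 0 to 9 with a sample left out (0 without days 140 to 150). The cause was not tested.

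Total-read scaling, equal weight per cell or, for UGP2 at days 90 to 100, leaving out 1 cell moved 131 of 145 levels beyond counting error, with equal weight 1 of 72 by over 1.5 times, and no thinning or a minimum of 5 reads moved 88 of 144 shares. No paired analysis was possible because the labels give no replicate numbers. Depth limits PFKL most, and the single virgin sample and the 2 of lactation limit every comparison of phases.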
